A study of Solanum lycopersicum with 2 samples.

Results

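The 9 genes described here encode 5 acid invertases, an invertase inhibitor and 3 sucrose transporters of tomato (Solanum lycopersicum), and other members that these families may have were not analysed here. They were taken by identifier out of 25923 genes listed in either of 2 libraries: the cell wall invertases LIN5, LIN7, LIN6 and LIN8, the vacuolar invertase TIV1, the inhibitor INVINH1, and the transporters SUT1, SUT2 and SUT4. The study compared anthers, the flower organs in which pollen forms, with young leaves of the cultivar Moneymaker, using untreated glasshouse plants 8 weeks old. Anthers of several developmental stages went into the anther library, per the labels' protocols, so its values mix stages. Each tissue gave 1 library, and neither the number of plants nor pooling is stated. Transcripts were counted by MACE, a method that sequences the 3' ends of polyadenylated mRNA and aims at 1 read per transcript.

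Sucrose made in leaves travels through the phloem and has to be taken up or split before a sink tissue can use it. Invertases split sucrose into glucose and fructose: the cell wall enzymes act outside the cell and the vacuolar enzyme acts on stored sucrose. Invertase inhibitors are small proteins that bind invertases and block them, and sucrose transporters of the SUT family carry sucrose together with protons across membranes. In anthers the developing pollen has no direct link to the phloem, so its sugars arrive through the space around the tapetum, the cell layer that feeds the pollen. Cell wall invertases are known for their part in this supply, and loss of their activity in anthers is known to cause male sterility in tobacco.

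The anther library held 12411606 mapped reads and the leaf library 11534512. Levels are given as RPM, reads per 1000000 mapped reads of the library. They carry no length term, and since MACE is meant to give 1 read per transcript, levels are set beside each other between genes without one. One read was worth 0.0806 RPM in anthers and 0.0867 RPM in leaves. A level of 3 reads, taken here as an approximate limit for a count of 0, was worth 0.242 and 0.260 RPM. The median listed gene had 4.43 RPM in anthers and 4.42 RPM in leaves. Values "in anthers" and "in leaves" are those of these 2 libraries. There are no replicates, so no test was run between the tissues. Intervals below are exact 95% intervals for counting error only, and tissue and library cannot be told apart. In whole organs, fewer cells of a type and less RNA per cell cannot be told apart either. The files do not pair identifiers with names, so the tissue labels were not checked against named marker genes.

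All 9 genes were listed in both libraries. A total of 8 had a mean of the 2 levels of at least 1 RPM and were compared by the log2 ratio, log2((anther RPM + 1) / (leaf RPM + 1)), and a value of 1 or more, or of -1 or less, is called 2-fold. The log2 ratio holds the pseudocount of 1 RPM and understates the difference of low genes, whereas fold values below are plain ratios of RPM. LIN5 and LIN7 were at least 2-fold higher in anthers, a direction taken by 21.5% of the 17137 genes tested in all. LIN8, INVINH1, SUT1 and SUT2 were at least 2-fold lower in anthers, a direction taken by 17.5% of all genes tested. LIN6 and TIV1 lay between, and SUT4 fell under the level filter with a mean of 0.886 RPM. The median log2 ratio was -0.96 over the 8 genes and 0.15 over all genes tested. The counting interval of the ratio lay above 1 for LIN5, LIN7 and TIV1, 3 of the 8 genes, as for 41.7% of all genes tested. It lay below 1 for the other 5, as for 31.7% of all genes tested.

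**Figure D1:**
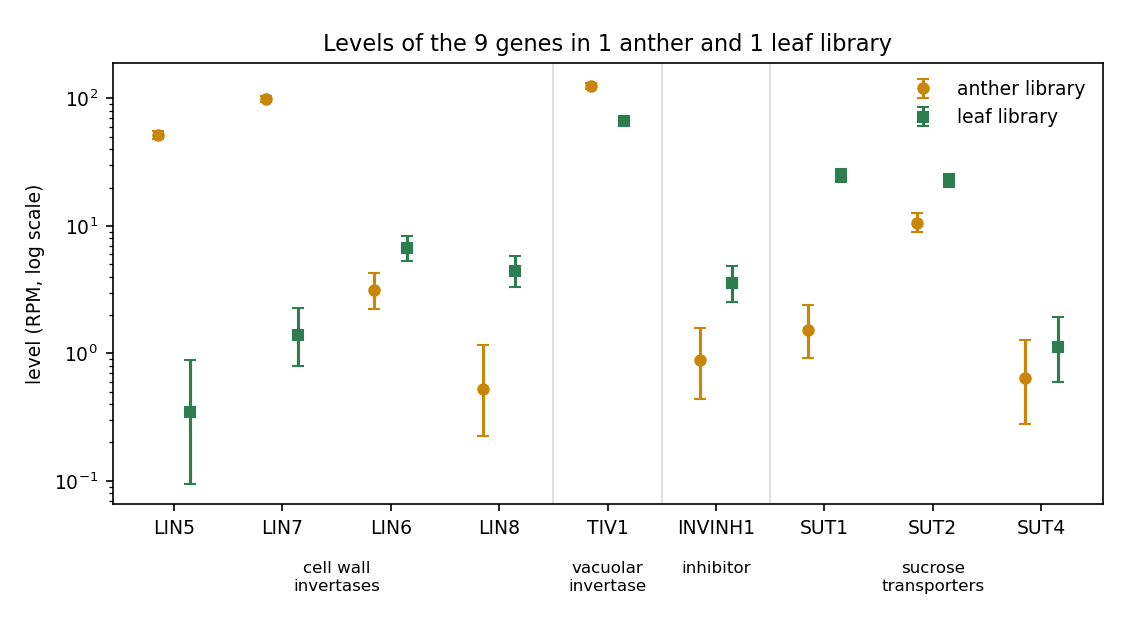
Level of each gene in RPM on a log scale in anthers (circles) and leaves (squares), with exact 95% intervals for counting error. LIN5, LIN7 and TIV1 were higher in anthers, and the intervals of the 2 libraries overlapped only for SUT4.

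LIN7 was the most abundant cell wall invertase in anthers. It has been described in tomato as an invertase of the tapetum and pollen. Its gene, Solyc09g010090.2 on chromosome 9, had 1235 reads in anthers and 16 in leaves, or 99.5 RPM (interval 94.0 to 105) and 1.39 RPM (0.793 to 2.25). The level was 71.7-fold higher in anthers, with a counting interval of 44.0 to 126, and the log2 ratio was 5.40 (4.03 with a pseudocount of 5 RPM and 6.07 with 0.1 RPM). Of the 17137 genes tested, 155 (0.904%) had a log2 ratio at least that high. LIN7 ranked 1236 by level in the anther library, and in leaves it lay above 34.8% of the listed genes.

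LIN5, a cell wall invertase whose natural variation affects the sugar content of tomato fruit, showed the same direction. Solyc09g010080.2 had 642.5 reads in anthers and 4 reads in leaves, or 51.8 RPM (47.9 to 56.0) and 0.347 RPM (0.0945 to 0.888). The leaf value was close to the 0.260 RPM that 3 reads are worth, so the 149-fold higher level in anthers is loosely bounded, with an interval of 58.1 to 550. Its log2 ratio of 5.29 (3.41 with a pseudocount of 5 RPM and 6.86 with 0.1 RPM) was reached by 171 genes (0.998% of those tested). In plain folds LIN5 stood farther from equality than LIN7, while in log2 ratios LIN7 did, because the pseudocount weighs most on the low leaf value of LIN5. The counting intervals of their folds overlapped widely.

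LIN6 and LIN8 were lower in anthers. LIN6 is known in tomato from sink tissues and as a gene induced by wounding and sugars. Solyc10g083290.1 on chromosome 10 had 39 reads in anthers and 77 in leaves, or 3.14 RPM (2.23 to 4.30) and 6.68 RPM (5.27 to 8.34). This was a 2.12-fold lower level in anthers (interval 1.43 to 3.21), but its log2 ratio of -0.89 did not reach the 2-fold limit. Its place relative to that limit turned with the pseudocount and the scaling, from -0.52 to -1.06.

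LIN8, encoded next to LIN6 by Solyc10g083300.1, had 6.5 reads in anthers and 51 in leaves, or 0.524 RPM (0.227 to 1.16) and 4.42 RPM (3.29 to 5.81). The level was 8.44-fold lower in anthers, with an interval of 3.54 to 20.5, and the log2 ratio was -1.83. Of all genes tested, 8.33% had a log2 ratio at most that low. With a pseudocount of 5 RPM its log2 ratio was -0.77, under the 2-fold limit.

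Together the cell wall invertases had 155 RPM in anthers and 12.8 RPM in leaves, from 1923 and 148 reads. The sum was 12.1-fold higher in anthers, with an interval of 10.2 to 14.4. The family was made up of different genes in the 2 libraries. In the anther library LIN7 held 64.2% of the family's reads (interval 62.0 to 66.4) and LIN5 33.4% (31.3 to 35.6). In the leaf library they held 10.8% (6.31 to 17.0) and 2.70% (0.741 to 6.78). LIN6 held 2.03% of the family's reads in anthers (1.45 to 2.76) and 52.0% in leaves (43.7 to 60.3). LIN8 held 0.338% in anthers (0.146 to 0.749) and 34.5% in leaves (26.8 to 42.7). These shares do not depend on the scaling between the libraries, and for none of the 4 genes did the intervals of the 2 libraries overlap.

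**Figure D2:**
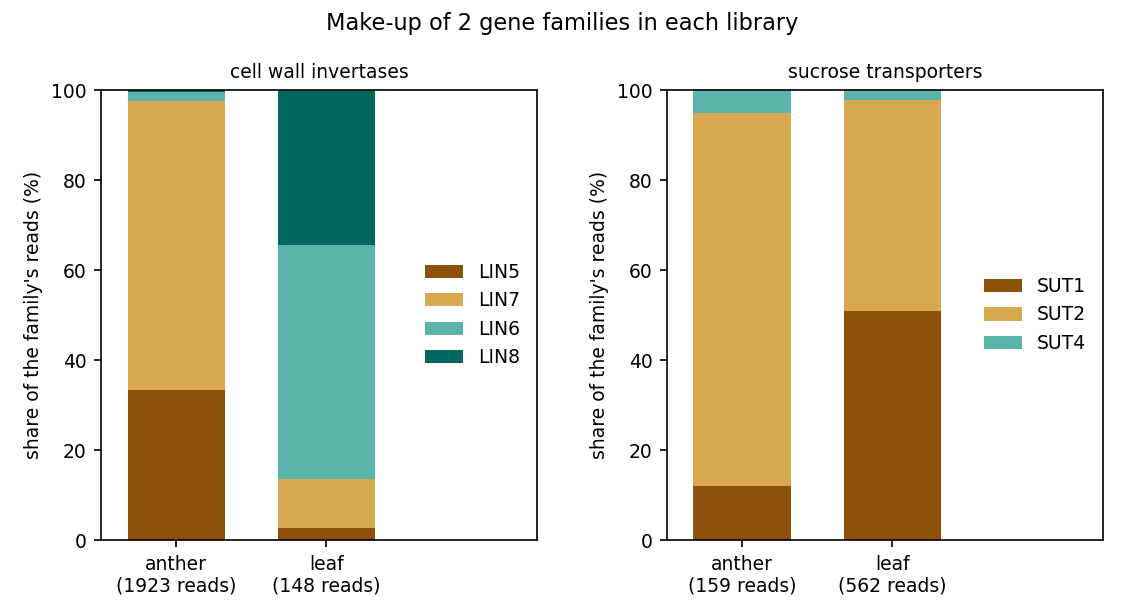
Share of each family's reads, in percent, held by each gene in anthers (left bar) and leaves (right bar), for the cell wall invertases and for the sucrose transporters. LIN7 and LIN5 filled nearly all of the anther bar and LIN6 and LIN8 most of the leaf bar, and SUT1 took 11.9% of the transporter reads in anthers against 50.9% in leaves.

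The 4 cell wall invertase genes lie in 2 tandem pairs, LIN5 with LIN7 on chromosome 9 and LIN6 with LIN8 on chromosome 10. No other listed identifier lies between the genes of either pair, and both genes of a pair have the same strand in the files. In the RefSeq gene table of assembly SLM_r2.1, in which these genes are found by name, 0 genes start between LIN5 and LIN7 and 0 between LIN6 and LIN8. The genes of each pair had the same direction. LIN7 had 1.92 reads per read of LIN5 in anthers (1.74 to 2.12) and 4 in leaves (1.29 to 16.4), where it rests on 16 and 4 reads. LIN6 had 6 reads per read of LIN8 in anthers (2.46 to 14.8) and 1.51 in leaves (1.05 to 2.19). Between the libraries the intervals overlapped for LIN7 over LIN5 and did not overlap for LIN6 over LIN8.

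Of the genes directly beside the pairs, none had a log2 ratio near those of LIN5 and LIN7. Such ratios were rare, reached by 0.998% and 0.904% of all genes tested. Genes a few places from LIN8 had values like those of LIN6 and LIN8. Values at most as low as those 2 were more common, at 19.3% and 8.33% of all genes tested. Whether either pair differs from its surroundings was not tested. On chromosome 9 the listed gene before LIN5 had 8.30 RPM in anthers and 1.21 RPM in leaves, a log2 ratio of 2.07. The listed gene after LIN7 had 415 RPM in anthers and 189 RPM in leaves, a log2 ratio of 1.13. Both were 2-fold higher in anthers, but their log2 ratios were far below the 5.29 and 5.40 of LIN5 and LIN7. Of the 10 listed genes flanking this pair, 5 on each side, 8 were tested, with log2 ratios from -3.25 to 2.07 and a median of 0.11. Of these 8, 2 were 2-fold higher in anthers and 2 were 2-fold lower, at -3.25 and -2.32. On chromosome 10 the listed gene before LIN6 had 54.8 RPM in anthers and 17.9 RPM in leaves, a log2 ratio of 1.56 and opposite to that of LIN6. The listed gene after LIN8 had 9 reads in anthers and was not listed in leaves. Of the 10 flanking genes of this pair, 8 were tested, with log2 ratios from -2.19 to 2.06 and a median of -0.59. Of these 8, 2 were 2-fold higher in anthers and 3 were 2-fold lower. The 3 lower genes stood at -2.19, -1.87 and -1.48, all after LIN8, whose own log2 ratio was -1.83. Over all genes tested, 21.5% were 2-fold higher in anthers and 17.5% were 2-fold lower.

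**Figure D3:**
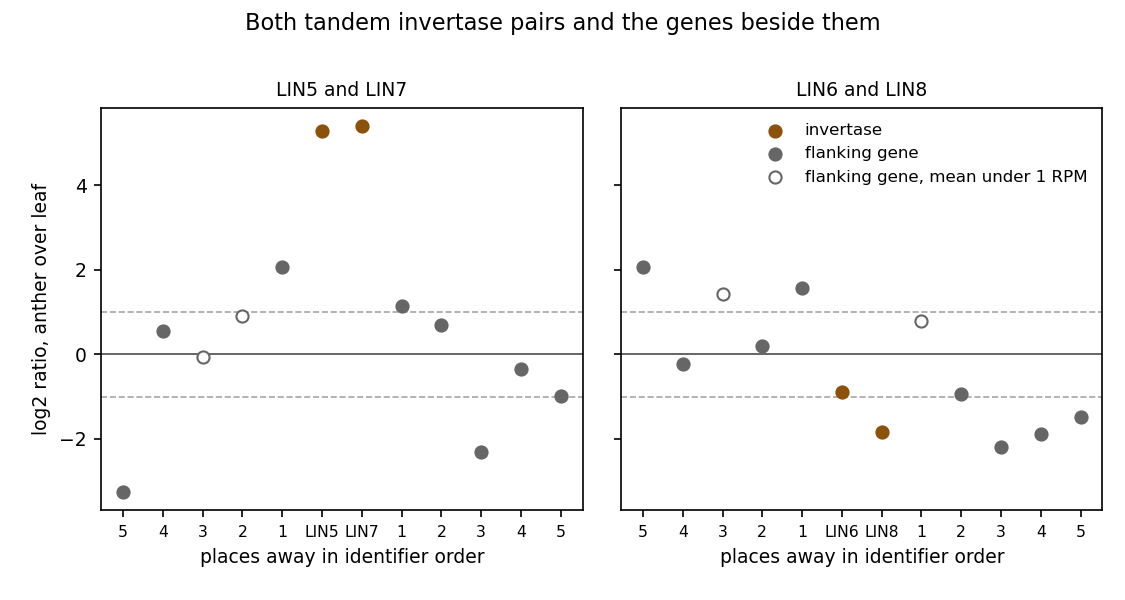
Log2 ratio of anther over leaf level for each tandem invertase pair and the 5 listed genes on either side in identifier order; dashed lines mark the 2-fold limits and open circles are genes with a mean under 1 RPM. LIN5 and LIN7 stood at 5.29 and 5.40, above each flanking gene shown. LIN6 and LIN8, with log2 ratios less rare among all genes tested, lay within the range of the genes beside them.

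TIV1, the vacuolar acid invertase known for splitting stored sucrose in ripening fruit, was the most abundant of the 9 genes in both libraries. Solyc03g083910.2 on chromosome 3 had 1561 reads in anthers and 773 in leaves, or 126 RPM (120 to 132) and 67.0 RPM (62.4 to 71.9). The level was 1.88-fold higher in anthers, with an interval of 1.72 to 2.05, and the log2 ratio of 0.90 did not reach the 2-fold limit. Of the genes tested, 23.9% had a log2 ratio at least that high. TIV1 lay above 96.1% of the listed genes of anthers and 91.9% of those of leaves.

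The balance of cell wall and vacuolar invertase transcripts differed between the libraries. The cell wall invertases together had 1.23 reads per read of TIV1 in anthers (1.15 to 1.32) and 0.191 in leaves (0.159 to 0.229). TIV1 held 44.8% of the reads of the 5 acid invertases described here in anthers (43.1 to 46.5) and 83.9% in leaves (81.4 to 86.2). These 5 together had 281 RPM in anthers and 79.8 RPM in leaves, 3.52-fold higher in anthers (3.27 to 3.78).

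INVINH1, an inhibitor known in tomato to bind cell wall invertase outside the cell, was lower in anthers. Solyc12g099190.1 on chromosome 12 had 11 reads in anthers and 41 in leaves, or 0.886 RPM (0.442 to 1.59) and 3.55 RPM (2.55 to 4.82). The level was 4.01-fold lower in anthers, with an interval of 2.02 to 8.65. INVINH1 lay above 29.8% of the listed genes in anthers and above 46.9% of those in leaves. The log2 ratio was -1.27, and it was -0.54, under the 2-fold limit, with a pseudocount of 5 RPM. Set against its target family, the anther library held 175 cell wall invertase reads per inhibitor read (97.5 to 351) and the leaf library 3.61 (2.54 to 5.23). With TIV1 added to the invertases the values were 317 in anthers (177 to 635) and 22.5 in leaves (16.4 to 31.5). Transcript numbers do not give the amount or activity of either protein.

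SUT1, the transporter known for loading sucrose into the phloem of leaves, had the lowest log2 ratio of the 9 genes. Solyc11g017010.1 on chromosome 11 had 19 reads in anthers and 286 in leaves, or 1.53 RPM (0.922 to 2.39) and 24.8 RPM (22.0 to 27.8). The level was 16.2-fold lower in anthers, with an interval of 10.2 to 27.3, and the log2 ratio was -3.35 (-2.19 with a pseudocount of 5 RPM and -3.93 with 0.1 RPM). Of the 17137 genes tested, 304 (1.77%) had a log2 ratio at most that low.

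SUT2, a family member needed in tomato for normal pollen tube growth, was also lower in anthers but by less. Solyc05g007190.2 on chromosome 5 had 132 reads in anthers and 263 in leaves, or 10.6 RPM (8.90 to 12.6) and 22.8 RPM (20.1 to 25.7). The level was 2.14-fold lower in anthers (1.73 to 2.66). Its log2 ratio of -1.03 lay just past the 2-fold limit, and 17.1% of all genes tested had a value that low or lower. The call was lost when levels were scaled to the reads on listed genes (-0.99) and with a pseudocount of 5 RPM (-0.83).

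SUT4, the remaining transporter and known as a carrier of low affinity, was near the detection limit. Solyc04g076960.2 on chromosome 4 had 8 reads in anthers and 13 in leaves, or 0.645 RPM (0.278 to 1.27) and 1.13 RPM (0.600 to 1.93). The interval of its ratio ran from 0.205 to 1.49, so a difference between the libraries was not detectable at this depth.

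The 3 transporters together had 12.8 RPM in anthers and 48.7 RPM in leaves, a 3.80-fold lower level in anthers (3.18 to 4.56). SUT2 held 83.0% of their reads in anthers (76.3 to 88.5) and 46.8% in leaves (42.6 to 51.0). SUT1 held 11.9% in anthers (7.35 to 18.0) and 50.9% in leaves (46.7 to 55.1), and SUT4 held 5.03% (2.20 to 9.67) and 2.31% (1.24 to 3.92). There were 0.144 SUT1 reads per SUT2 read in anthers (0.0840 to 0.234) and 1.09 in leaves (0.917 to 1.29). Acid invertase reads per transporter read were 21.9 in anthers (18.7 to 25.9) and 1.64 in leaves (1.47 to 1.82).

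The order of the levels differed between the tissues. In the anther library it ran TIV1, LIN7, LIN5, SUT2, LIN6, SUT1, INVINH1, SUT4 and LIN8. Each of the first 5 genes differed from the next in that order beyond counting error. From SUT1 on, the intervals of the ratios between neighbours held 1. In the leaf library the order was TIV1, SUT1, SUT2, LIN6, LIN8, INVINH1, LIN7, SUT4 and LIN5. There the neighbours SUT1 and SUT2, LIN8 and INVINH1, and LIN7 and SUT4 did not differ beyond counting error, and the other neighbours did. For SUT4 over LIN5, which rests on 13 and 4 reads, this was marginal, with an interval of 1.004 to 13.7. For LIN6 over LIN8 the interval began at 1.05. In both libraries the genes were ordered by the same counts, which the intervals do not take into account. TIV1 stayed first in both, while LIN5 stood at place 3 in anthers and at place 9 in leaves, and SUT1 at places 6 and 2.

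**Figure D4:**
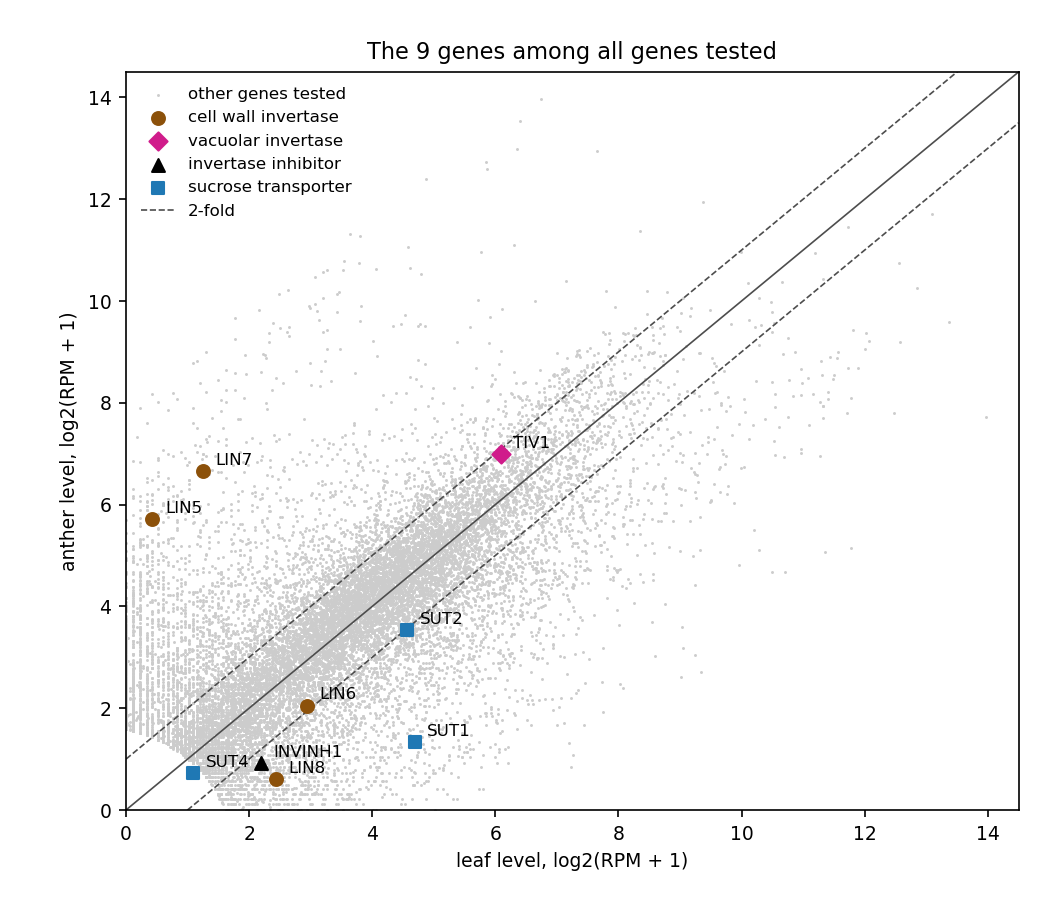
Level of each gene in anthers against that in leaves, as log2(RPM + 1), for all genes tested (grey) and the 9 genes described (symbols by role); the solid line marks equal levels and the dashed lines 2-fold. LIN5 and LIN7 lay far above the upper dashed line, SUT1 far below the lower one, and TIV1, LIN6 and SUT4, the last with a mean under 1 RPM, between them.

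Other genes had level pairs like those of LIN7 and SUT1. In the plane of log2(RPM + 1) in the anther and the leaf library, 20 genes outside the 9 lay within a distance of 0.5 of LIN7 and 61 within that distance of SUT1. With only 2 libraries such likeness rests on 2 values. The gene nearest to LIN7 was Solyc09g075400.2 on chromosome 9, with 95.6 RPM in anthers and 1.39 RPM in leaves. The gene nearest to SUT1 was Solyc05g013870.2 on chromosome 5, with 1.56 RPM in anthers and 24.8 RPM in leaves. The files give no names for either.

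How the deposited height of the highest read peak was computed is not stated. That height, divided by the gene's reads, was taken as a rough guide to how tightly the reads of a gene are stacked. Across 7837 genes that had 100 reads or more in each library, this ratio had a median of 25.1% in each library. TIV1 had 27.1% in anthers and 26.6% in leaves, and SUT2 had 23.5% in anthers and 25.1% in leaves. The other 7 genes had fewer than 100 reads in at least 1 library. LIN7 had 25.6% and LIN5 18.8% in anthers, and SUT1 had 54.9% in leaves. For INVINH1 the peak height in anthers, 15, was larger than its 11 reads, and the headers do not say what else the peak counts. Whether this bears on the level of INVINH1, and so on the invertase reads per inhibitor read, was not tested.

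Counts were whole, within 1e-06 reads, in both libraries for 7 of the 9 genes and for 18817 of the 25923 listed genes. The 642.5 anther reads of LIN5 and the 6.5 of LIN8 were not whole, where reads shared between places may have been divided, which the headers do not state. Rounding all counts down left the log2 ratio of LIN8 at -1.87, against -1.83. A whole count can still hold shared reads, and how reads were assigned between the similar genes of a tandem pair is not given in the sources used here.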

How the data were processed

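MACE libraries of 1 anther and 1 leaf sample were grouped by tissue label. Poly-A mRNA was sequenced from its 3' end, per the labels' protocols. The submitters' processing notes name FastQC and no version of it. The aligner, counter, build and annotation are not stated there or in the labels. Estimated counts (called all hits), mapped reads, a scaled value and a peak signal were deposited by the authors, per the file headers. The scaled value equals count / mapped reads x 1000000, so it is called RPM here although the authors named it otherwise. The 9 members and all lists were chosen with earlier results of these data known. Genes missing from a file counted as 0. Log2 ratios used a pseudocount of 1 RPM and a mean of at least 1 RPM. For intervals (95%, conditional Poisson and Clopper-Pearson for ratios and shares) counts were rounded to whole numbers; reads carry no named molecular identifiers. Calls and intervals were run on simulated Poisson counts, which hold counting error only and no variation between plants or libraries. Alternatives were pseudocounts of 0.1 and 5, 4 scalings (TMM from edgeR 4.0.16), 2 filters, a log2 limit of 2 and counts rounded down. Python 3.11.15 and scipy 1.17.1 were used. Besides the members, the text gives by identifier the gene nearest in level to the members with the highest and the lowest log2 ratio, and the listed genes beside the tandem pairs as values. Of the 9 names, 8 were found as a symbol or synonym, ignoring case, in the RefSeq table of assembly SLM_r2.1 (LIN6 as a synonym of Wiv-1, TIV1 of AI and SUT1 of LeSUT1), all 8 on the chromosome the files give. The name INVINH1 was not found in that table, so its chromosome was not checked this way. That table holds 0 identifiers of the Solyc type, so other genes of sugar use were not analysed here, and no sequences were used here.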

Additional observations from a re-analysis of the deposited data

How the results depend on the processing

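Over 7 settings (2 pseudocounts, 4 scalings, counts rounded down) the 63 log2 ratios of the 9 genes held 0 changes of sign. Of them, 14 moved beyond the counting interval of the main log2 ratio. That interval holds the pseudocount of 1 RPM, unlike the fold intervals above. With a pseudocount of 0.1 RPM the log2 ratios come closer to the plain folds, so a move there is no difference beyond the counting error of those folds. The largest ranges were those of LIN5, LIN7 and LIN8 (3.41 to 6.86, 4.03 to 6.07 and -2.86 to -0.77). LIN5 and LIN7 were the genes called higher in anthers in each of the 9 settings run for that count. Over all genes tested this call was made for 9.98% (log2 limit of 2) to 24.4% (pseudocount of 0.1). Their main log2 ratios of 5.29 and 5.40 lie far past the limits, so most of these settings could hardly change the count. Both genes passed the mean of 10 RPM only through their anther levels (leaf levels 0.347 and 1.39 RPM). The 4 genes at least 2-fold lower in anthers became 1 (SUT1) with a pseudocount of 5 (11.5% of all genes tested) and with a log2 limit of 2 (7.17%), and 2 (SUT1 and SUT2) when a mean of 10 RPM or more was required (19.4%), where 5 of the 9 genes are tested. They became 5, with LIN6 added, with a pseudocount of 0.1 (-1.06, 19.7% of all genes) and with TMM scaling (-1.01, 19.6%). The same 5 were called with the median ratio set to 1 (-1.02, 19.8%). They were also called when levels were scaled to the reads on listed genes without the 50 most abundant genes (18.7%). The number was 3 when levels were scaled to all listed reads (17.1%), where SUT2 dropped out. The median log2 ratio of all genes tested, 0.15, was 0.13 lower with TMM scaling, where 3281 genes were 2-fold higher in anthers and 3354 lower; relative to the median of 0.15 LIN6 stood at -1.04 and SUT2 at -1.18. With a pseudocount of 5 the genes 2-fold higher and lower in anthers numbered 2261 and 1970 over all genes (13.2% and 11.5%), against 3690 and 3006, and the log2 ratio of the summed cell wall invertases was 3.17, against 3.49, and that of the transporters was -1.59, against -1.85. With TIV1 added, the invertase reads per inhibitor read in leaves were 22.5, against 3.61. No paired analysis was possible because there was 1 library for each tissue, and for the same reason no library could be left out. Depth limits LIN8 and INVINH1 in anthers, LIN5 and LIN7 in leaves and SUT4 in both, which rest on 4 to 16 reads.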
